A study of Mus musculus with 20 samples.

Results

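The genes described here encode the protein parts of the cytosolic ribosome. Members were the genes of the count table whose mouse symbol is Rpl or Rps followed by digits and at most the letters a, l, x or al, together with Rplp0, Rplp1, Rplp2 and Rpsa. The rule left out symbols with -ps, the Rps6k kinases and the mitochondrial (Mrp) genes. It found 82 of the 25317 gene identifiers in the table, 50 of the large (60S) subunit and 32 of the small (40S) subunit. GENCODE M21 annotates 80 of the 82 as protein-coding, and the other two, Rps4l and Rpl6l, as processed pseudogenes despite their symbols.

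RNA came from the cortex of 3-month-old C57BL/6 mice that were wild type or carried a heterozygous Foxp2 deletion in the cortex, each lysate from the cortex of 1 animal. In bacTRAP, ribosomes that carry a GFP tag are captured on beads by a GFP antibody together with the mRNAs they hold (IP), and here some of the same lysate was set aside before capture (Input). Both fractions were measured in 5 wild-type animals (wt734, wt736, wt785, wtBT13, wtBT14) and 3 heterozygous animals (het729, het786, hetBT13). A further 4 heterozygous Input libraries, from het730 and hetBT14, carry the suffix IX or IXX and lack an IP partner, so they were used only where named. The sources used here do not name the tagged protein, the cells that carry it, the driver of the deletion or any transgene shared by both genotypes.

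Each ribosome holds a single copy of most of these proteins, so cells make them in near-equal amounts. Their mRNAs begin with a run of pyrimidines, the 5′ terminal oligopyrimidine (TOP) tract, through which mTOR signalling and the protein Larp1 switch their translation on and off together. When translation is off, the mRNAs are kept off the ribosome. Ribosomal protein mRNAs have been copied back into the mouse genome many times, so most members have processed pseudogenes of nearly the same sequence, and a short read can match more than 1 of these places.

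Runs of pyrimidines were looked for near the annotated starts of the RefSeq promoters (build GRCm38.p6), which matched 60 of the 82 members. Windows of 30 bases, 20 before and 10 from the annotated start on, are printed with their longest run of C or T in capitals. Rps6 is the subunit phosphorylated downstream of mTOR, Rplp2 belongs to the stalk, Rpl27a and Rps10 show long runs at the start, Rpl4 was the member with the highest level, and Rpl22 was called higher in wild-type IP. In order they are chr4:86857358-86857387 on the minus strand, chr7:141447631-141447660 plus, chr7:109519175-109519204 plus, chr17:27635235-27635264 minus, chr9:64173367-64173396 plus and chr4:152325706-152325735 plus.
Rps6: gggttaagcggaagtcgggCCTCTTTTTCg
Rplp2: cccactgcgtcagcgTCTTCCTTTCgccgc
Rpl27a: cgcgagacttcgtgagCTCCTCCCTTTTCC
Rps10: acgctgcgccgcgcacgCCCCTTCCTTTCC
Rpl4: agTCTTTCCTTTTCCTgtgggagcagccgg
Rpl22: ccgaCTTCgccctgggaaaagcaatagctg

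A run of 8 or more C or T on the sense strand stood in 28 of 72 member windows (38.9%), against 12.6% of the 32851 windows of all promoters in the table. On the other strand the same search found 5.56% of member windows and 13.1% of all windows. A window without the run says only that these letters are not near this annotated start. Some runs lie wholly before the start, as those printed for Rpl4 and for Rpl22 (4 bases) do. Such runs are not shown to be part of the mRNA.

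The second set shows why counts of single members have to be read with care. Rpl9, a large subunit protein, lies at chr5:65388364-65391444 on the minus strand (mm10), and Rpl9-ps6, annotated protein-coding despite its name, at chr19:32465865-32466578, also minus. Over the 576 coding bases of Rpl9 they differed at 1 base, shown in capitals in the stretch from coding base 207 to 266.
Rpl9: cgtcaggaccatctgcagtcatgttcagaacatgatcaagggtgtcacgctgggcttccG
Rpl9-ps6: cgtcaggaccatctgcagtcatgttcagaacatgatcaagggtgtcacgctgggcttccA

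Rps27, a small subunit protein, lies at chr3:90212522-90213651 on the minus strand. Its intronless relative Rps27rt (chr9:114982366-114982739, minus) has the same 252 coding bases without a mismatch, while the paralog Rps27l (chr9:66946086-66949516, plus) was 76.2% identical. Capitals mark where Rps27 and Rps27l differ between coding bases 4 and 63.
Rps27: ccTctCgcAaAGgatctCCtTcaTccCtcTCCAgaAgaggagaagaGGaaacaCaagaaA
Rps27l: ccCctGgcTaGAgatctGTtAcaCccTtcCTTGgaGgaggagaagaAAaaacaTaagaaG

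Counts per library ran from 2689544 to 5754169. Foxp2, the deleted gene, was at 38.1 to 64.0 CPM (counts scaled to a common library size) in wild-type Input and 24.1 to 31.0 in heterozygous Input, without overlap, and at 45.4 to 103 and 31.9 to 55.8 CPM in IP, with overlap. In edgeR the difference was not called in Input (adjusted p = 0.501) or IP (adjusted p = 0.981). All 5 excitatory cortical neuron markers were called higher in IP in both genotypes. Their summed share was 0.0360% to 0.0448% in the 8 Input libraries and 0.0632% to 0.0717% in the 8 IP libraries. Of 5 oligodendrocyte markers 4 were called lower in both, and their share went from 0.228% to 0.312% in Input down to 0.0594% to 0.0993% in IP. Of 6 astrocyte markers 5 were called lower and 1 higher. Not every neuronal list rose: 3 of 3 inhibitory neuron markers and 5 of 5 striatal markers were called lower in both genotypes. The part of this change in cell types in the results on the members was not tested.

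The 82 members took 0.516% ± 0.099 (SD, n = 5) of the counts in wild-type Input and 0.577% ± 0.083 (n = 3) in heterozygous Input. In IP they took 0.405% ± 0.023 (n = 5) and 0.421% ± 0.048 (n = 3). Among wild-type Input libraries, wt734, wt736 and wt785 held 0.577%, 0.589% and 0.590%, and wtBT13 and wtBT14 held 0.372% and 0.451%. In heterozygous Input they held 0.646% in het729, 0.600% in het786 and 0.484% in hetBT13. The 3 animals with BT in their names were the lowest of their genotype in Input.

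In IP the wild types held 0.426%, 0.418%, 0.419%, 0.382% and 0.378% in the same order, and the heterozygotes 0.474%, 0.407% and 0.381%. The share was lower in IP than in Input in 7 of 8 animals, and in wtBT13 it was 1.03 times the Input share. The libraries of IP lay closer to each other than those of Input.

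**Figure D1:**
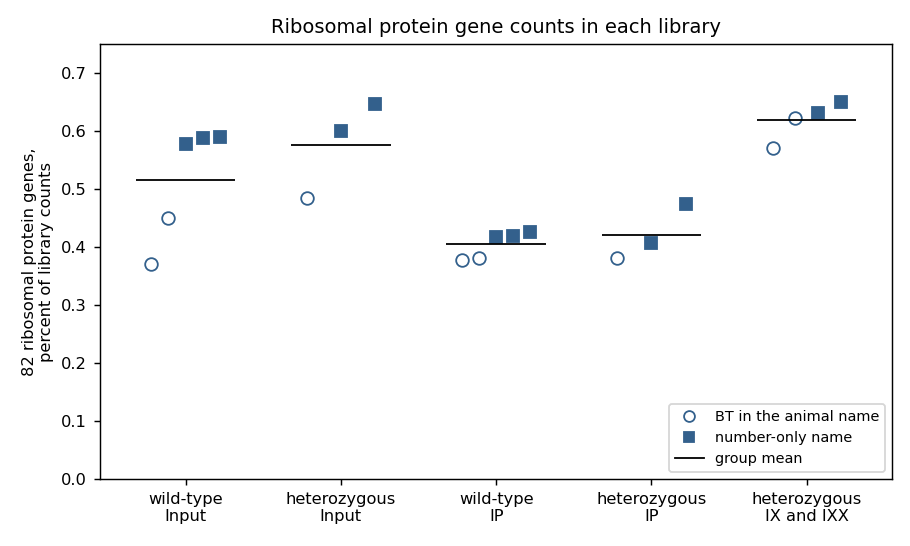
Percent of each library's counts on the 82 members (vertical axis), by group (horizontal axis); each point is a library, open circles are animals with BT in their names, filled squares those with numbers only, and lines are group means. In Input the 3 open circles lie at 0.372% to 0.484%, below all filled squares, and the IP libraries lie between 0.378% and 0.474%.

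Which members differed between ribosome-bound RNA and lysate was asked first in wild types. Of the 82 members 80 passed the filter on low counts, and Rpl3l and Rpl39l did not. Most of the 80 fell in IP: 55 were called lower and 2 higher (edgeR quasi-likelihood test with an animal block, adjusted p below 0.05), where 25.6% of the 14797 genes tested were called lower and 28.5% higher. The median log2 fold change was -0.45, a fold of 0.731, beside 0.03 over all genes. Leaving out the annotated pseudogenes Rps4l and Rpl6l gave 54 lower and 1 higher of 78.

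In heterozygotes 56 members were called lower and 1 higher, where 22.1% of all genes were called lower and 22.6% higher, and the median log2 fold change was -0.60. Of the 80 members, 52 were called lower in both genotypes, 3 in wild types alone and 4 in heterozygotes alone. Both subunits took part: 31 of 48 large and 24 of 32 small subunit members were called lower in wild types, with medians of -0.43 and -0.45. A ratio below 1 compares shares of 2 libraries, and in bulk tissue fewer cells of a type and less RNA per cell cannot be told apart.

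**Figure D2:**
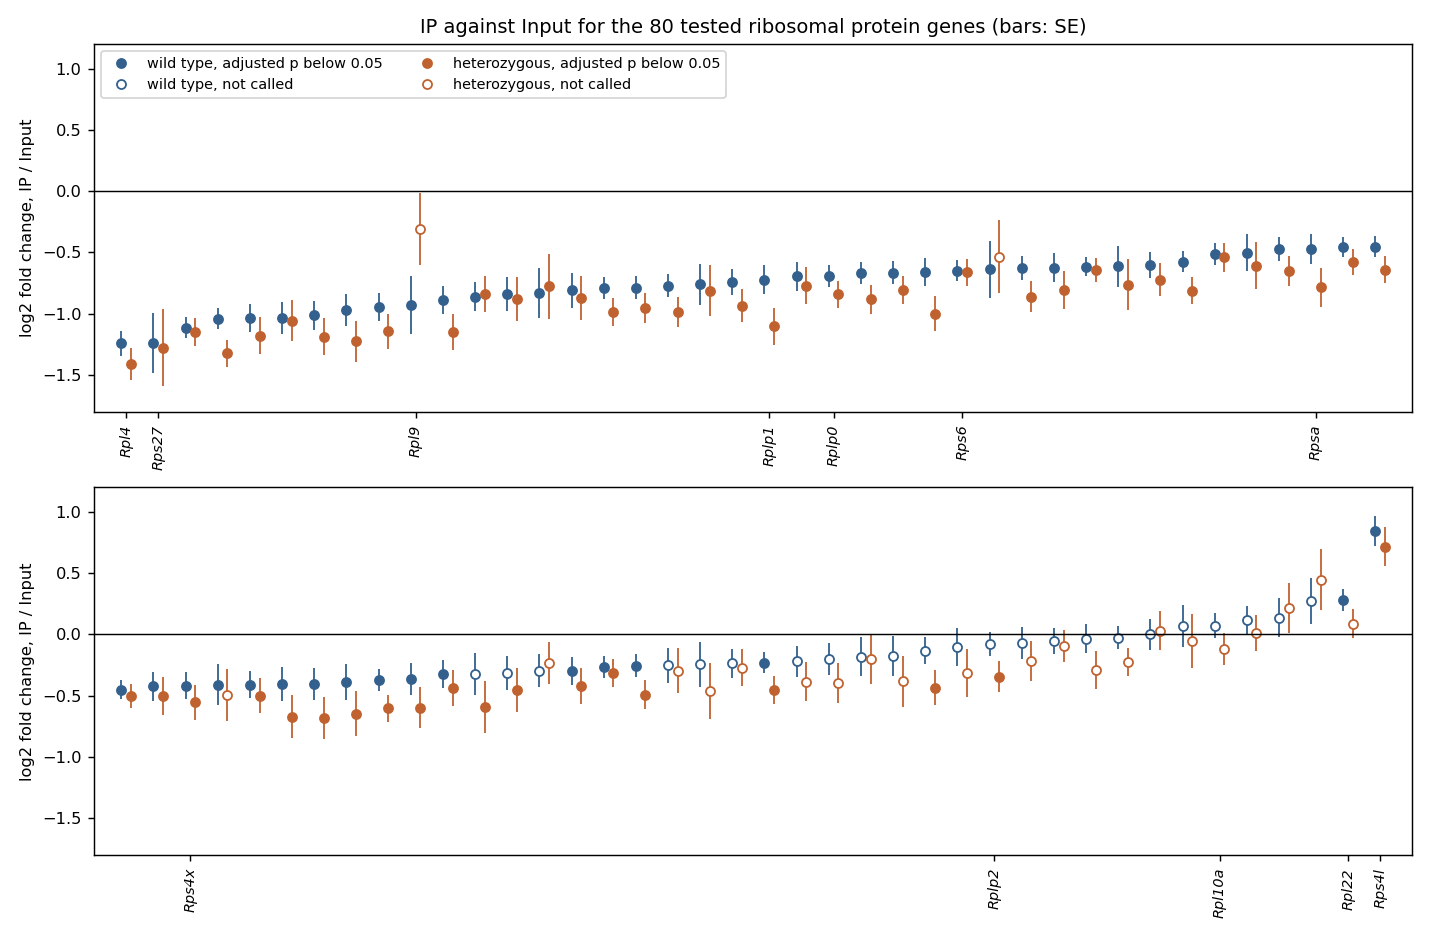
Log2 fold change of IP over Input (vertical axis, bars are SE) for each of the 80 tested members, ranked by the wild-type value with some genes of the text labelled; blue is wild type, orange heterozygous, and filled points have an adjusted p below 0.05. Values run from -1.24 for Rpl4 to 0.84 for Rps4l in wild types, and 72 of 80 lie below 0.

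Rpl4, a large subunit protein that lines the exit tunnel, had the highest level of all members and the largest fall. It lies at chr9:64173375-64178666 on the plus strand and holds small nucleolar RNA genes in its introns. Its Input level was 637, 686, 687, 525 and 615 CPM in wt734, wt736, wt785, wtBT13 and wtBT14, and its IP level 307, 278, 280, 244 and 217 CPM. No wild-type IP library reached the lowest Input library. The log2 fold change was -1.24 (SE 0.10, edgeR adjusted p = 1.69e-09) in wild types and -1.41 (SE 0.13, adjusted p = 3.62e-08) in heterozygotes. In heterozygotes Rpl4 went from 700, 758 and 737 CPM in Input to 359, 244 and 237 CPM in IP (het729, het786, hetBT13).

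Other members with large falls in wild types were Rps27 (log2 fold change -1.24), Rpl13a (-1.11), Rpl13 (-1.03), Rps29 (-1.03), Rps2 (-1.01) and Rps19 (-0.97), each in the same direction in all 5 animals. Rps27 was low in IP, with means of 3.24 CPM in wild types and 3.36 CPM in heterozygotes. Its log2 ratio in wild types ran from -1.88 in wt736 to -0.25 in wtBT13. Rps19 is the gene most often mutated in Diamond-Blackfan anaemia, and Rpl13a is also known as a repressor of translation in inflammation. In heterozygotes Rps27 (-1.28), Rps19 (-1.22), Rps2 (-1.19), Rpl13 (-1.18), Rpl32 (-1.15) and Rpl13a (-1.15) had large falls beside Rpl4.

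Rpl13a held 232, 229, 222, 127 and 185 CPM in the wild-type Input libraries (wt734, wt736, wt785, wtBT13, wtBT14) and 102, 97.9, 97.9, 80.2 and 74.2 CPM in IP. The groups did not overlap. Rps29, a short zinc-binding subunit, was at 131, 123, 122, 61.2 and 87.8 CPM in Input and at 47.3, 54.8, 48.6, 48.5 and 49.5 CPM in IP. The Rps29 values varied more between animals in Input than in IP, and wtBT13 had the smallest gap.

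Members called higher in IP were few. Rps4l rose in both genotypes: wild types held 25.1, 25.3, 25.4, 19.3 and 18.5 CPM in Input and 45.4, 46.4, 37.6, 39.0 and 33.7 CPM in IP. Every IP library was above every Input library in wild types. The log2 fold change was 0.84 (SE 0.12, edgeR adjusted p = 5.72e-06) in wild types and 0.72 (SE 0.16, adjusted p = 0.000863) in heterozygotes, and Rps4l was the single member higher in all 8 animals.

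Rps4l is a processed copy of Rps4x (chrX:102184941-102189394, minus strand) and lies at chr6:148354656-148355598, inside Tmtc1 on the opposite strand, where it overlaps 0 Tmtc1 exons. The library method marks no strand, so reads of Rps4l and unspliced reads of Tmtc1 cannot be told apart. Tmtc1 itself had a log2 fold change of 0.17 in wild types (SE 0.12, edgeR adjusted p = 0.251) and 0.35 in heterozygotes (SE 0.16, adjusted p = 0.0699). Rps4x, the X-linked parent gene, fell, with log2 fold changes of -0.42 and -0.55. Rps4x and Rps4l aligned at 79.9% identity over 783 coding bases.

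Rpl22, a large subunit protein known also for binding viral and cellular RNA, was the other member called higher in wild types. It held 61.1, 61.6, 60.9, 44.2 and 48.4 CPM in Input and 78.7, 71.3, 75.1, 58.9 and 49.9 CPM in IP (wt734, wt736, wt785, wtBT13, wtBT14). Input and IP overlapped, but the IP library was the higher in each of the 5 animals. The log2 fold change was 0.28 (SE 0.09, edgeR adjusted p = 0.0112), and without wt734 it was 0.25 with an adjusted p of 0.0538. In heterozygotes Rpl22 had 0.09 (SE 0.12, adjusted p = 0.557), so it was not called there. Its related gene Rpl22l1, outside the rule, fell by 0.53 on the log2 scale in wild types.

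The stalk proteins Rplp0, Rplp1 and Rplp2 recruit the factors that drive elongation. Rplp0 (-0.69 in wild types, -0.84 in heterozygotes) and Rplp1 (-0.72 and -1.10) fell in both genotypes. Rplp2 had a log2 fold change of -0.08 in wild types, not called, and fell by 0.35 in heterozygotes. The heterozygous call of Rplp2 was lost without het729 (edgeR adjusted p = 0.103), without het786 (0.140), without the animal block (0.212) and with no filter on low counts (0.0630). In number-only animals Rplp2 was called lower in wild types (-0.25, edgeR adjusted p = 0.0343). Rplp1 and Rplp2 bind each other as dimers in the stalk. Rplp1 went from 105, 120, 113, 51.7 and 73.8 CPM in wild-type Input to 61.3, 56.4, 54.9, 50.3 and 48.4 CPM in IP. Rplp2 went from 76.5, 83.7, 79.9, 40.8 and 45.5 CPM to 64.5, 63.5, 71.8, 50.7 and 51.0 CPM. In wtBT13 and wtBT14 Rplp2 was higher in IP, and in the other 3 wild types lower. A test of Rplp1 against Rplp2 was not run.

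Rps6, Rpsa and the ubiquitin fusion gene also fell in wild types. Rpsa, which is also the laminin receptor, fell by 0.47 on the log2 scale, and Rps6 by 0.65. Rps27a, made as a fusion with ubiquitin, fell by 0.94. Rpl10a, the protein that bacTRAP lines usually tag, was looked at after its values were seen: it had 0.07 in wild types (SE 0.10, edgeR adjusted p = 0.567) and -0.12 in heterozygotes (SE 0.13, adjusted p = 0.466). Its level was 50.1 ± 7.39 CPM (SD, n = 5) in wild-type Input and 52.3 ± 4.36 CPM in wild-type IP. The tagged protein is not named here, so reads of a tagged Rpl10a, if present, cannot be told apart from those of the gene.

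Paralog pairs were compared next. Of Rpl36a and its autosomal copy Rpl36al, Rpl36al fell (-0.67, edgeR adjusted p = 3.14e-06) and Rpl36a had -0.24 (adjusted p = 0.262). With its named pseudogenes added Rpl36a was called lower too (-0.66, edgeR adjusted p = 3.01e-06), as it was with sequence-matched ones (-0.50, adjusted p = 0.0176) and in number-only animals (-0.62, adjusted p = 0.00666), both tried after the data were seen. Rps27 fell and Rps27l, a target of p53, had -0.18 (adjusted p = 0.346). Rpl3 fell by 0.79, whereas its muscle form Rpl3l did not pass the filter, with 0 to 1.61 CPM in the 16 libraries compared. Rpl39 fell by 0.41 in wild types (adjusted p = 0.0421) and had -0.49 in heterozygotes (adjusted p = 0.0627). The wild-type call of Rpl39 was lost in DESeq2 (adjusted p = 0.0680), in edgeR without the animal block (0.0711) and in edgeR without wt734, wt736 or wt785 (0.158 to 0.167). In heterozygotes Rpl39 was called under 6 alternatives, such as added named pseudogenes (-0.58, edgeR adjusted p = 0.0188). Rpl39l, known from testis, did not pass the filter, with 0 CPM in 14 of these libraries. Rpl10 fell by 0.40, a call lost without wt736 (edgeR adjusted p = 0.0817) or wt785 (0.0624). Differences within pairs were not tested.

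At the other end of the ranking, 19 of the 80 members were not called in either genotype. Rpl7a (0.00), Rps13 (0.07), Rpl27a (0.12), Rps12 (0.14) and Rpl28 (0.27) were among them, with wild-type log2 fold changes near or above 0, and were picked out after their values were seen. The wild-type and heterozygous values ranked the 80 members alike (Pearson r = 0.939, Spearman rho = 0.923, across genes from 2 sets of animals with common library preparation and TMM scaling). The wild-type value had r = 0.115 with log2 exon length, r = -0.0721 with log2 coding length over 78 members and r = -0.323 with the log2 Input level per kilobase of exon. Input enters both sides of the last r, so noise in Input alone can make it negative. These correlations are descriptions across genes, which are not independent replicates.

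Of the 82 members 29 hold a small nucleolar RNA gene, and 27 overlap another gene that is not a small RNA gene. Some of these overlaps are on opposite strands, where reads cannot be told apart without strand. Others, such as Rpl13 with Gm20388 and Rps10 with RPS10-NUDT3, share the strand. Among members tested in wild types, 20 of 29 small nucleolar RNA hosts were called lower with a median of -0.42, and 35 of 51 others with a median of -0.45. Members with a pyrimidine run of 8 or more near the RefSeq start had a wild-type median of -0.41 (n = 27) and those without -0.45 (n = 31).

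Animals differed in how far the members fell. The median log2 ratio of IP to Input CPM over the members was -0.08 in wtBT13 and -0.41 in wtBT14, and -0.61, -0.66 and -0.67 in the wild types wt734, wt736 and wt785. It was -0.58 in het729, -0.69 in het786 and -0.51 in hetBT13. Of the members with counts in both libraries, 46 of 81 were below 0 in wtBT13, against 64 of 80 or more in each other animal. The 5 animals with number-only names lay between -0.69 and -0.58, and the 3 with BT names between -0.51 and -0.08, without overlap. In the Input libraries of these 8 animals the share of nuclear oxidative phosphorylation genes separated the same animals, at 2.01% to 2.22% in the BT-named and 2.40% to 2.63% in the number-only. So did that of mitochondrial ribosomal protein genes, at 0.430% to 0.471% and 0.490% to 0.515%. The BT-named IX and IXX libraries of hetBT14 lay outside these BT-named ranges. They held 2.35% and 2.56% for the first list and 0.540% and 0.543% for the second. Oligodendrocyte marker shares overlapped, with the highest, 0.312%, in wtBT13. The Input library of wtBT13 also had the lowest share of mitochondrially encoded genes, 0.790% against 1.04% to 1.40% in the other animals compared. Its astrocyte marker share was the highest, 0.120% against 0.0695% to 0.0995%. The part of these differences in the members' values was not tested. Over all 8 animals, 43 of the 80 members were lower in IP in every animal, compared with 22.6% of all genes tested.

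**Figure D3:**
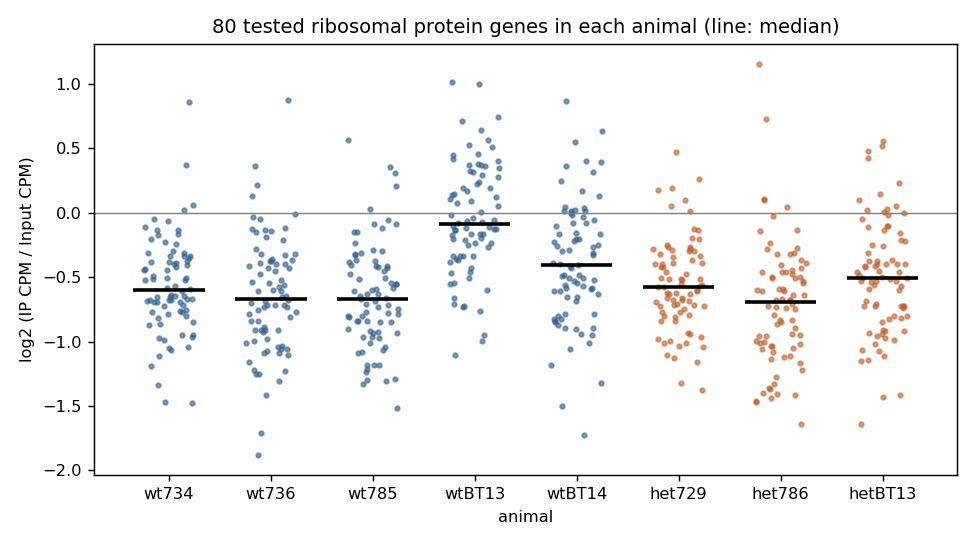
Log2 ratio of IP to Input CPM (vertical axis) of the tested members in each animal (horizontal axis); points are genes, black lines medians, blue wild type and orange heterozygous. The median is -0.08 in wtBT13 and between -0.69 and -0.41 in the other 7 animals.

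The difference between animals lay mainly in Input. In Input, 60 of 80 members (75%) were lower in every BT-named animal than in every number-only animal and 0 were higher in every one, where 7.68% of the 13870 genes tested were lower and 5.83% higher in this way. In IP the counts were 25 lower and 0 higher, where 5.84% and 5.18% of 14755 genes were. The labels do not say what the form of the name stands for, and the split was looked at after the data were seen. The BT-named IX library of hetBT14 held 0.571% and its IXX library 0.623%, which is above the 3 BT-named Input libraries.

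Copies of the members elsewhere in the genome also held counts. By name 221 loci in the table are pseudogenes of 56 members. By sequence, 826 loci annotated as pseudogenes matched 74 members (blastn, at least 85% identity over 150 bases). Rpl9-ps6, annotated as protein-coding, is not among them. These 826 held 0.684% ± 0.142 (SD, n = 5) of the counts in wild-type Input, more than the members themselves, and 0.498% ± 0.032 in wild-type IP. For 55 of the 80 tested members the pseudogenes together held more Input counts than the member, and the median share of a family on pseudogenes was 62.1%.

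Rpl9 was the extreme case: it held 4.32, 6.13, 8.08, 5.31 and 9.86 CPM in wild-type Input, while Rpl9-ps6 alone held 74.0, 70.1, 97.2, 59.8 and 70.6 CPM. Rpl9 was the lowest of the tested members, and its sequence-matched pseudogenes, which leave out Rpl9-ps6, took 96.9% of the family. Rps27 held 8.38, 10.9, 8.94, 4.47 and 6.05 CPM in wild-type Input, and Rps27rt 95.9, 101, 95.8, 57.9 and 66.8 CPM. The sources used here do not say how the authors' counting assigned a read that fits several places.

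The ratios of members and copies rose and fell together from family to family, and the copies were mostly the lower. Over 72 families with at least 50 pseudogene counts in each fraction, the wild-type log2 ratio of the member and of its summed pseudogenes had r = 0.866 (rho = 0.856, across genes that share reads and libraries). The summed pseudogenes had the lower ratio in 56 of the 72 families. In the family of Rpl36a the member had -0.28 and its pseudogenes -1.30, and in that of Rpl27a 0.07 and -0.58, both picked out after their values were seen. Of 364 sequence-matched pseudogenes tested, 217 were called lower in wild-type IP and 0 higher, with a median of -0.65. Rpl9-ps6, outside these 364, fell by 0.94, Rpl3-ps1 by 0.85 and Rpl13-ps6 by 1.19 on the log2 scale. Rpl9-ps6 and Rpl3-ps1 were picked as near-identical copies after their values were seen. When the counts of the sequence-matched pseudogenes were added to their members, which was tried after the data were seen, 67 members were called lower and 2 higher in wild types.

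**Figure D4:**
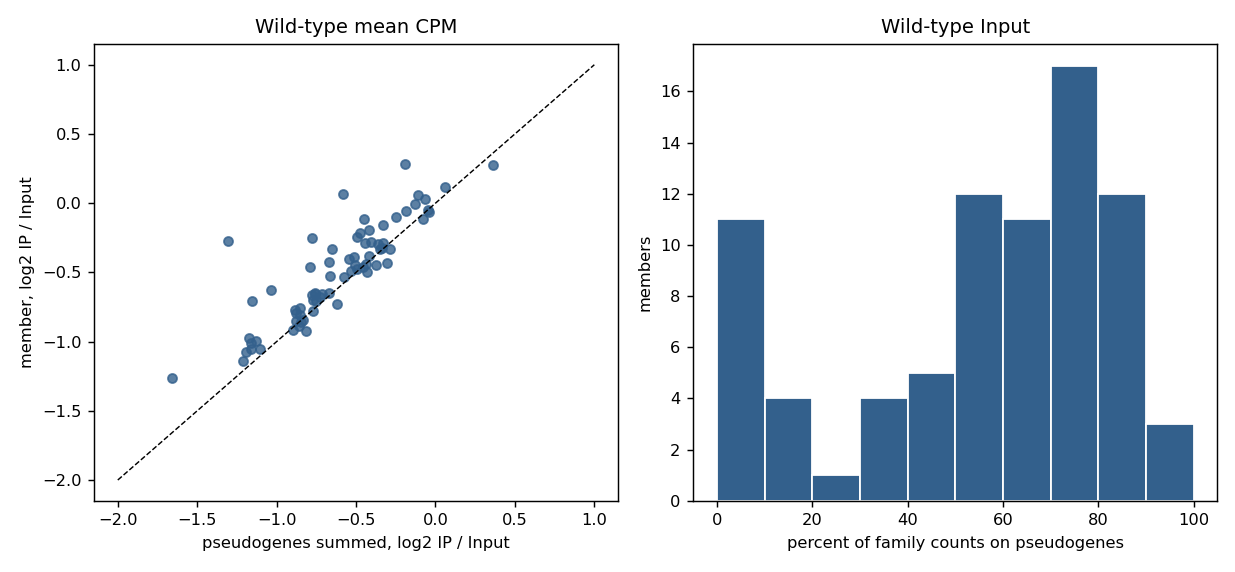
Left, wild-type log2 IP over Input of each member (vertical) against that of its summed pseudogenes (horizontal), each point a family and the dashed line equality; right, the number of tested members (vertical) by the percent of family counts on pseudogenes in wild-type Input (horizontal). In 56 of 72 families the point lies above the line, where the pseudogenes have the lower ratio, and 55 of 80 members lie above 50 percent on the right.

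Levels per kilobase of exon in wild-type Input were spread widely, and less so once copies were counted in. Rpl4 (314 CPM per kb), Rplp1 (185), Rps29 (151) and Rpl41 (141) were highest, and Rpl9 (2.19), Rpl35a (4.44) and Rpl28 (5.14) lowest among coding members tested. The highest was 143 times the lowest, and 25.1 times once sequence-matched pseudogenes were added. The SD of the log2 level per kilobase over coding members went from 1.46 to 1.10. Rpl4, Rps3, Rpl8 and Rpl41 have no matched pseudogene in the table.

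Genes of the same pathway outside the rule were counted by list. Of 10 related genes outside the rule, 8 were called lower and 1 higher in wild types. Rps27rt fell by 1.49 on the log2 scale. Fau, whose product is cut into the 40S protein Rps30, fell by 0.90 and Rps3a1 by 0.66, while Rack1, a scaffold on the 40S head, rose by 0.41 in wild types and 0.35 in heterozygotes. Rack1 held 122, 122, 118, 102 and 107 CPM in wild-type Input and 168, 140, 155, 147 and 145 CPM in IP, without overlap.

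Of 21 other mRNAs with a TOP tract, 12 were called lower and 4 higher in wild types, with a median of -0.28. Eef1a1, the elongation factor that brings tRNA to the ribosome, fell by 1.43 and Naca by 0.68. Eif3l rose by 0.50, so the direction was not shared by every TOP mRNA.

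Mitochondrial ribosomal protein genes, which encode a separate ribosome, went the other way: 34 of 76 were called higher and 4 lower in wild types, with a median of 0.17. Of 45 ribosome biogenesis genes 30 were called higher and 4 lower, with a median of 0.45. Nol6, a pre-ribosome factor, rose by 1.09, whereas Ncl (nucleolin) fell by 0.95. Of 19 tested mTOR pathway and TOP regulator genes 7 were called in each direction: Rptor rose by 1.19 and Tsc2 by 1.05, and Lamtor1 fell by 0.52. Of 81 nuclear oxidative phosphorylation genes 63 were called lower and 2 higher, with a median of -0.37. In IP the mitochondrially encoded genes, 13 of 13 called lower, held 0.046% to 0.098% of counts in 7 libraries and 0.315% in het729, which was also the IP library with the highest member share. The IP library of het729 also had the highest striatal marker share, 0.0668% against 0.0374% to 0.0484% in the other IP libraries. Its nuclear oxidative phosphorylation share was 2.35%, against 1.90% to 2.17%. Its oligodendrocyte marker share, 0.0974%, lay within the range of the others. Whether these shares have a part in the member share of het729 was not tested.

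The genotypes were then compared within each fraction, 3 heterozygous against 5 wild-type libraries. In Input 0 of 80 members were called by edgeR, by DESeq2 or by limma-voom, where 0% of 13870 genes were called by edgeR. By unadjusted p under 0.05 there were 7 of 80 (8.75%), against 7.06% of all genes. The members leaned one way without passing: 79 of 80 had a positive log2 fold change, where 7112 of the 13870 genes tested had. The median was 0.21 (a fold of 1.16), beside 0.01 over all genes. Members measured in the same libraries can move together, so a number of signs describes these libraries and does not count replicates. Other lists leaned the same way: 80 of 80 nuclear oxidative phosphorylation genes (median 0.18), 20 of 21 other TOP mRNAs (0.15) and 9 of 10 related genes outside the rule (0.22) were above 0. Of the astrocyte markers 5 of 6 were below 0 (median -0.43, 3 with an unadjusted p under 0.05). Their summed share was 0.0695% to 0.0725% in the 3 heterozygous and 0.0812% to 0.120% in the wild-type Input libraries compared. In the IX and IXX libraries it was 0.101% and 0.0977% for hetBT14, inside the wild-type range, and 0.0569% and 0.0589% for het730. Of the microglia markers 4 of 5 were below 0 (median -0.35). Their part in the members' values was not tested. In number-only animals alone the median was 0.11. Without wtBT13 it was 0.11 and without hetBT13 0.32.

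The smallest unadjusted p in Input were those of Rpl6 (log2 fold change 0.37, SE 0.14, edgeR adjusted p = 0.670), Rpl4 (0.22, adjusted p = 0.681), Rps18 (0.41, adjusted p = 0.683), Rpl7 (0.28, adjusted p = 0.683) and Rps2 (0.26, adjusted p = 0.692). Rpl28 (-0.02) was the member below 0. Rpl6 held 86.2, 98.9, 90.3, 59.3 and 70.0 CPM in wild types and 112, 106 and 92.7 CPM in heterozygotes, so the groups overlapped at hetBT13.

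In 4 members, Rpl4, Rpl17, Rplp0 and Rps6, each of the 3 heterozygous Input libraries compared was above every wild-type one, and in 0 below, where 2.39% of all genes were above and 2.9% below. Rplp0 held 155, 159, 154, 104 and 144 CPM in wild types and 179, 165 and 161 CPM in heterozygotes. Rps6 held 87.8, 79.5, 86.2, 74.3 and 74.1 CPM against 89.1, 95.3 and 93.5 CPM. In both genes the lowest heterozygous value lay just above the highest wild-type value. The IX library of hetBT14 lay within the wild-type range for Rpl4 (615 CPM), Rplp0 (142 CPM) and Rps6 (79.7 CPM), and above it for Rpl17. Rpl17 is outside the rule for named genes and was picked out after its values were seen.

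In IP the genotypes lay closer. Again 0 of 80 members were called by any of the 3 tools, where edgeR called 0% of 14755 genes, and 0 of 80 had an unadjusted p under 0.05 (4.09% of all genes). Of the 80 members 67 were above 0, where 7481 of 14755 genes were, and the median log2 fold change of the members was 0.08. It was -0.02 without het729, with 29 above 0. No member had heterozygous libraries all above or all below the wild types, where 1.82% and 1.7% of all genes had.

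Rps6 (0.20), Rpl34 (0.21), Rpl9 (0.57), Rpl7a (0.26) and Rps9 (0.16) had the smallest p among the members above 0, and Rpsa (-0.13), Rpl10 (-0.10), Rpl22 (-0.08), Rps21 (-0.06) and Rplp1 (-0.04) among those below. All had edgeR adjusted p of 0.981 or more. Rps6 held 54.8, 52.3, 50.1, 50.9 and 46.0 CPM in wild-type IP and 64.7, 57.6 and 53.6 CPM in heterozygous IP, overlapping at hetBT13.

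**Figure D5:**
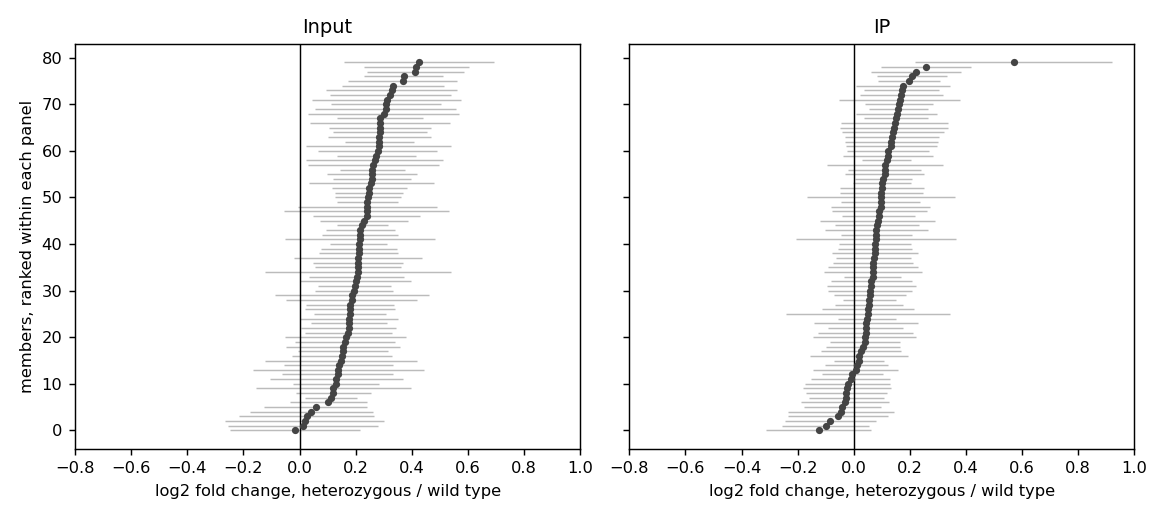
Log2 fold change of heterozygous over wild type (horizontal axis, bars are SE) for the 80 tested members, ranked within each panel (vertical axis), in Input on the left and IP on the right. In Input 79 of 80 points lie above 0 with a median of 0.21, and in IP 67 of 80 with a median of 0.08; no member passed the test.

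Whether the fall from Input to IP differed between genotypes was tested in the fit of 16 libraries. No member was called by any of the 3 tools, where 0% of 14797 genes were called by edgeR, and 0 members had an unadjusted p under 0.05 (3.07% of all genes). The difference, heterozygous minus wild type, was negative in 72 of 80 members, where it was in 7763 of 14797 genes. Its median over the members was -0.15, and -0.07 without wtBT13. Rplp1 (-0.38, SE 0.19), Rpl37a (-0.34), Rpl41 (-0.24) and Rplp2 (-0.27) were among the members of smallest p on the negative side. Rpl9 (0.62, SE 0.38), Rpl28 (0.17), Rps12 (0.08), Rps10 (0.07) and Rpl23a (0.10) had them on the positive side, all with an edgeR adjusted p of 0.99998. Since the same wild-type and heterozygous libraries enter all 3 genotype contrasts, these are not separate observations.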

How the data were processed

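RNA-seq libraries (Smart-seq2, per the labels' protocols) came from 20 samples of 10 animals. The authors deposited raw read counts per gene. The submitters' processing notes name HTSeq and the build mm10. Aligner, annotation release, strand setting and the handling of reads with several matches were not given in the sources used here. Smart-seq2 marks neither strand nor molecules, so error estimates cover the spread between libraries, in which animals and amplification cannot be told apart.

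Genes were named and located with GENCODE M21 (24873 of 25317 identifiers matched). Counts were tested in R 4.3.3 with edgeR 4.0.16: filterByExpr (count minimum 10), TMM scaling, robust quasi-likelihood F tests and Benjamini-Hochberg adjustment over all genes tested, at 0.05. IP against Input was fitted in 16 libraries with animal as a block and an IP effect per genotype, and genotype in IP and Input separately. The pairing comes from the shared lysate: IP and Input of an animal correlated after removal of group means with r from 0.0545 to 0.217, above any other animal of the genotype in 7 of 8. CPM are TMM-scaled over all libraries and errors are SD over animals. Fits were tested on simulated data with 200 changed genes.

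Named genes were: per IP comparison up to 8 called members per direction with the largest change, at least 5 CPM and the same direction in every animal; per genotype contrast the 5 of smallest p per direction; Rplp0, Rplp1, Rplp2, Rpsa, Rps6, Rpl22, Rps27a, the paralog pairs, the members of highest and lowest level and those failing the filter; and up to 3 called genes of other lists. Members and lists were chosen with earlier results of these data known. Alternatives were DESeq2 1.42.0, limma-voom (limma 3.58.1), other scalings and filters, added pseudogene counts, each animal left out, no block, the form of the animal's name, and the IX libraries. Some results that the rule for named genes selects are not reported here.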

Additional observations from a re-analysis of the deposited data

Results flagged for a closer look

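Among 82 series of values tested in the 5 wild types (the share and the named members, in Input and in IP), 4 had a library that stood apart from the rest by Dixon's test, about what chance flags at 1 in 20. Rplp0 in wild-type Input was 104 CPM in wtBT13, against 144 to 159 CPM in the other 4. Rpl13 in wild-type IP was 28.9 CPM in wt736, against 23.7 to 24.4 CPM in the other 4. The low member Rpl39l was at 0.28 CPM in the Input of wtBT13 and at 1.10 CPM in the IP of wtBT14, and at 0 in the other libraries of those groups. A series with a single value above 0 is flagged whatever that value is. The series also share libraries, so the number flagged compares only loosely with 1 in 20.

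The IX and IXX libraries, which entered no main comparison, held member shares above the highest wild-type Input library (0.590%) in 3 of 4 cases: 0.631% in het730IX, 0.649% in het730IXX and 0.623% in hetBT14IXX. The labels do not say what IX and IXX stand for.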

How the results depend on the processing

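In 18 alternatives (19 in Input) every count of members called stayed within 1.5 times its main value, and 0 members were called in the genotype contrasts and their difference. In wild types the alternatives called 1 to 2 members higher and 44 to 67 lower, and in heterozygotes 1 higher and 42 to 69 lower. Leaving out 1 animal at a time gave 46 to 60 called members in wild types and 43 to 60 in heterozygotes. Without the replicate block 49 members were called lower and 1 higher in wild types, where Rpl22 lost its call (adjusted p = 0.0808), and 51 lower and 1 higher in heterozygotes; all of these were called with the block. With sequence-matched pseudogenes added and in number-only animals alone, both chosen after seeing the data, 69 and 63 members were called in wild types. Adding the named pseudogenes turned Rpl9 in heterozygotes from -0.31, not called, to -1.19, called. Among the named members, no called value changed sign in any alternative; of 681 single values each, 19 lost and 12 gained a call in wild types, and 7 lost and 17 gained one in heterozygotes. The median over members changed sign in 1 case, heterozygous against wild-type IP without het729 (-0.02).

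Depth limits members of few counts: Rpl9, Rps27 and Rpl23a had the widest errors among named members, and Rpl3l and Rpl39l could not be tested.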
